A study of Homo sapiens with 4 samples.

Results

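The annexins are a family of proteins that bind phospholipid membranes when calcium rises. The transcripts described here are those of 10 annexin genes, ANXA1 to ANXA7, ANXA9, ANXA10 and ANXA11, out of the 19775 that have their own probe set on an Affymetrix whole-genome array. Every probe set annotated to 1 of these genes alone was taken, which gave 20 probe sets, and 15 of them, from 8 genes, reached 6 on the log2 scale in 1 array or more. The cells were SUM159, an established human breast cancer line of mesenchymal and hormone receptor-negative character, carrying the doxycycline-inducible vector pTRIPZ with miR-100. Flow cytometry split them by aldehyde dehydrogenase (ALDH) activity, which is used to enrich stem-like breast cancer cells, and both fractions were kept in suspension with or without DOX. The 4 groups were ALDH-positive DOX, ALDH-positive control, ALDH-negative DOX and ALDH-negative control, with 1 array each, and all 4 carried the construct. The titles give doxycycline for 10 h, whereas the sample descriptions give 13 h and doxorubicin, another drug, so the treatment is called DOX here. The series was made to find what miR-100 acts on in stem-like and other cells.

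A calcium-filled annexin core docks on negatively charged lipids, and the variable N-terminal tail decides which partners are brought to the membrane. Several members bind S100 proteins, among them annexin A2 with S100A10 and annexin A1 with S100A11. Annexins are recruited to wounds of the plasma membrane, which matters for tumour cells that move through tight spaces, and annexin A5 is widely used to stain phosphatidylserine on dying cells. Annexins A9 and A10 are atypical members that have lost calcium sites.

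The RNA that the vector was built to express is shown first, because the DOX comparisons rest on its induction. The mature sequence is RefSeq's (GRCh38.p14), and capitals mark the seed, bases 2 to 8, which pairs with target RNAs. The arrays do not measure mature miR-100, so its induction was not checked here.
hsa-miR-100-5p: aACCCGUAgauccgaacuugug

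Promoter sequences from RefSeq (GRCh38.p14) matched all 10 genes, with 14 promoters of 300 bases each, from 250 bases before to 50 bases after the transcript start. Those of 4 genes are shown because they span the kinds of promoter found in the family and include ANXA3, the member that differed most between the fractions. Capitals mark CG dinucleotides and the motif TATAAA.
ANXA1, chr9:73151615-73151914 (plus strand): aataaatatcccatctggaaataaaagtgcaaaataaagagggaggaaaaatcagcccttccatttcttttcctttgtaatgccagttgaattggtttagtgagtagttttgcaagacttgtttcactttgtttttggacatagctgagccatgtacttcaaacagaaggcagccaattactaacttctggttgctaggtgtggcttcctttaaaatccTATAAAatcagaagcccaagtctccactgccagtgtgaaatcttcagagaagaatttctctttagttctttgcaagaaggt
ANXA2, chr15:60397937-60398236 (minus strand): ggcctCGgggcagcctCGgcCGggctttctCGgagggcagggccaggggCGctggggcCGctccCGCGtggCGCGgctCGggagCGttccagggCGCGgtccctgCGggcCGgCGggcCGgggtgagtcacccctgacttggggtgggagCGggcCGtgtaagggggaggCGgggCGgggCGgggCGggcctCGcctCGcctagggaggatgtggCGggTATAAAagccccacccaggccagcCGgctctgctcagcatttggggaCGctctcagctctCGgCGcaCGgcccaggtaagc
ANXA3, chr4:78551520-78551819 (plus strand): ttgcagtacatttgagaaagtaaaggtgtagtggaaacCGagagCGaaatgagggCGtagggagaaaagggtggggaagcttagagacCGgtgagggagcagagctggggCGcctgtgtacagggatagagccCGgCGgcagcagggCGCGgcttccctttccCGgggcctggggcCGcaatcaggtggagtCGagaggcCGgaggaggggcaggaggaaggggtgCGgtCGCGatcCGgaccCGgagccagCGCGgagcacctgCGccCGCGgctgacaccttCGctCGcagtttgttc
ANXA10, chr4:168092287-168092586 (plus strand): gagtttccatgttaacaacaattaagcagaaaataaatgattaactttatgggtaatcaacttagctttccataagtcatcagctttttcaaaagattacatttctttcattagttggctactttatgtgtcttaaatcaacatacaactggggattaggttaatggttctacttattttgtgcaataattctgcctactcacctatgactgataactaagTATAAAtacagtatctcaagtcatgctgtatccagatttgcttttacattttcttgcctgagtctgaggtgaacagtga

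The ANXA1 and ANXA10 windows held 0 CG dinucleotides each, with a GC content of 37.7% and 32.7%. ANXA3 had 25 CG dinucleotides and a GC content of 64.7%, and ANXA2 had 32 and 76.0%. TATAAA, searched on both strands, was found in 4 of the 14 annexin promoters and in 11.5% of all 35116 promoters of the same length. In ANXA1 and ANXA2 its first base lay 31 bases before the start and in ANXA10 29 bases before it, while in 1 of 3 ANXA11 promoters it lay 61 bases before. Promoters of genes at a level of 6 or more in these arrays had a median of 25 CG dinucleotides, and those of genes under 6 had a median of 8. ANXA1, which was measured in all 4 arrays, and ANXA10, which was measured in none, thus shared a promoter without CG dinucleotides and with TATAAA close to the same place. The match of letters is a description of these windows and names no binding factor.

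All values below are log2 levels from RMA, a method that corrects background, normalises the arrays to each other and summarises the probes of a probe set. A level of 6, near the median of all probe sets (6.18 to 6.22 in the 4 arrays), served as the limit under which a difference is one of background. Levels of different genes are not set against each other, since probe sets differ in brightness. Of the markers checked, VIM, ZEB1, CD44 and EGFR were at 6 or more in all 4 arrays, and ESR1, PGR, EPCAM and CDH1 were under 6 in all 4. Of 16 markers of leukocytes, endothelium, erythroid cells, hepatocytes, smooth muscle and fibroblasts 14 had a probe set, and 6 reached 6, namely MS4A1, PECAM1, HBB, ACTA2, MYH11 and DCN. PECAM1 had levels of 7.56 in ALDH-positive DOX and 5.96 in ALDH-positive control cells, against 9.62 in ALDH-negative DOX and 9.77 in ALDH-negative control cells. The summed linear level of 6 leukocyte markers was 216 in ALDH-positive DOX and 175 in ALDH-positive control cells, against 138 in ALDH-negative DOX and 139.9 in ALDH-negative control cells. Of these markers MS4A1 reached 6 in ALDH-positive DOX alone, at 6.21, and the others were under 6 in all 4 arrays, so the sum is mostly background. The summed linear level of 3 endothelial markers was 243 and 119.6 in the ALDH-positive DOX and control arrays, against 841 and 934 in the ALDH-negative DOX and control arrays, with VWF and CDH5 under 6 in all 4. The smooth muscle and fibroblast markers ACTA2, MYH11 and DCN were at 6 or more in all 4 arrays, with additive effects between the fractions of 1.04, 1.07 and -0.96 (limma adjusted p = 0.0118, 0.0232 and 0.00564), and their summed linear level was 3109 and 3247 in the ALDH-positive DOX and control arrays, against 4057 and 4013 in the ALDH-negative DOX and control arrays. HBB, the 1 erythroid marker with a probe set, had a summed linear level of 87.0 and 127 in the ALDH-positive DOX and control arrays, against 49.1 and 54.6 in the ALDH-negative DOX and control arrays. Their part in the results below was not tested. In bulk samples fewer cells of a type and less RNA per cell cannot be told apart. ALDH1A1, an enzyme behind the sorted activity, had 10.66 in ALDH-positive against 10.86 in ALDH-negative DOX cells, and 11.77 in ALDH-positive against 10.72 in ALDH-negative control cells. ALDH1A3, another such enzyme, had 6.64 in ALDH-positive against 7.79 in ALDH-negative DOX cells, and 6.48 in ALDH-positive against 5.86 in ALDH-negative control cells. With DOX both enzymes were thus lower in ALDH-positive than in ALDH-negative cells, and without DOX both were higher. The ALDH-positive DOX array stood apart in some RNA control probe sets. Of the 18S ribosomal RNA probe sets in it, those for the 3' and 5' ends differed from ALDH-positive control by -1.90 and -1.94, against 0.45 and 0.20 between the ALDH-negative arrays. The 18S probe set for the middle part differed by -0.30, against 0.07. Other controls were mixed in the ALDH-positive DOX array. Actin was at -0.67 for the middle part and -0.07 for the 3' end, and GAPDH at 0.39 for the 5' end. The ALDH-positive DOX array enters the additive model, the comparison of the fractions with DOX and the comparison of DOX with control in ALDH-positive cells. It does not enter the comparison of the fractions without DOX.

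Of the 8 annexins that reached 6, ANXA2 (a range of 0.15 over the 4 arrays), ANXA4 (0.18) and ANXA1 (0.36) varied least. ANXA1 encodes a glucocorticoid-induced protein that restrains phospholipase A2 and whose peptides act on formyl peptide receptors. Its level was 11.86 in ALDH-positive DOX, 11.73 in ALDH-positive control, 12.09 in ALDH-negative DOX and 12.05 in ALDH-negative control cells. The ALDH-positive arrays differed from the ALDH-negative ones by -0.24 with DOX and -0.32 without it. Of all genes 31.1% had a smaller absolute difference with DOX and 50.1% without it. ANXA2 encodes the annexin that forms a complex with S100A10 and binds plasminogen and its activator at the cell surface. It was at 13.65 in ALDH-positive DOX, 13.60 in ALDH-positive control, 13.75 in ALDH-negative DOX and 13.68 in ALDH-negative control cells, and the ALDH-positive arrays differed from the ALDH-negative ones by -0.10 with DOX and -0.08 without it. It and 2 of the other 3 probe sets have names ending in _x_at, which marks probes that can hybridise to related transcripts, and those 2 ranged over 0.15 and 0.18. The dimmest probe set had 8.59 and 8.44 in the ALDH-positive DOX and control arrays, against 8.95 and 8.84 in the ALDH-negative DOX and control arrays. ANXA2 has near-identical pseudogene copies, so its transcript and theirs may bind the same probes. The copy ANXA2P2 had its own probe set, which ranged over 0.15.

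**Figure D1:**
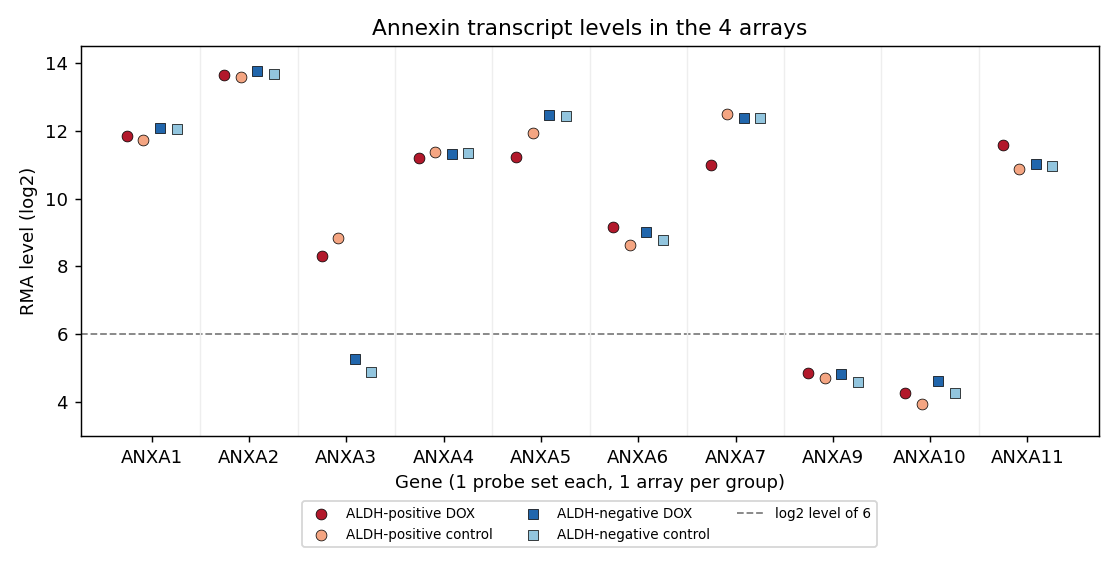
RMA levels (log2, vertical axis) of the 10 annexin genes, 1 probe set per gene and 1 array per group, with a dashed line at 6. ANXA3 lies above the line in both ALDH-positive arrays (8.30 and 8.84) and below it in both ALDH-negative arrays (5.27 and 4.90), ANXA9 and ANXA10 lie below it throughout, and ANXA7 is lower in ALDH-positive DOX (10.98) than in the other 3 arrays.

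ANXA3 had the widest difference between the sorted fractions among the 8 measured annexins. It encodes a small annexin known from neutrophils, with phospholipase-inhibiting and anticoagulant activity in vitro. Its level was 8.30 in ALDH-positive DOX and 8.84 in ALDH-positive control cells, against 5.27 in ALDH-negative DOX and 4.90 in ALDH-negative control cells. Both ALDH-negative arrays lay under 6. The difference, ALDH-positive minus ALDH-negative, was 3.03 with DOX and 3.94 without it. With levels under 6 set to 6 these were 2.30 and 2.84. Without DOX 99.95% of 12052 genes had a smaller absolute difference, and with DOX 99.5% of 12228. The gene has a single probe set of its own, so no other probe set bears on the value.

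An additive limma model over the 4 arrays, with terms for ALDH status and DOX, gave the mean difference between fractions with an error. It has 1 residual degree of freedom a gene, raised by moderation, it counts a DOX response that differs between the fractions as error, and its p-values cover only the spread among 4 arrays, possibly of 1 sort. ANXA3 rose in ALDH-positive cells by 3.48 ± 0.31 (SE, limma adjusted p = 1.65e-05), higher in both pairs. ANXA5 fell, with -0.88 ± 0.17 (SE, limma adjusted p = 0.0029), lower in both pairs. These were 1 higher and 1 lower among 8 annexins tested, and of all 12365 genes 13.5% passed as higher and 9.58% as lower, so counts of 1 in 8 lie near the shares of all genes. The median effect over the 8 annexins was -0.08, against 0.03 over all genes. The other annexins did not pass, with ANXA7 at -0.64 (limma adjusted p = 0.08), ANXA1 at -0.28 (limma adjusted p = 0.164) and ANXA2, ANXA4, ANXA6 and ANXA11 between -0.09 and 0.25. ANXA5 missed the threshold without a filter on level (limma adjusted p = 0.0595) and without the variance trend (limma adjusted p = 0.0781), and ANXA3 passed under each of 10 alternatives. Both genes have 1 probe set, so the alternatives that choose among probe sets could not change their effects.

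ANXA5 encodes the phosphatidylserine-binding annexin. Its level was 11.22 in ALDH-positive DOX and 11.94 in ALDH-positive control cells, against 12.47 in ALDH-negative DOX and 12.45 in ALDH-negative control cells. The ALDH-positive DOX array was the lowest, and the ALDH-negative arrays lay 0.03 apart. The difference between fractions was -1.25 with DOX, where it passed 2-fold, and -0.51 without it. Without the ALDH-positive DOX array the gene therefore stayed under 2-fold. Among genes that set the exposure of phosphatidylserine, 0 of 6 measured members passed the additive model (limma) in either direction, and 2, PLSCR4 and ATP11A, had an unadjusted p under 0.05, against 13.5% higher, 9.58% lower and 35.7% unadjusted over all genes. The scramblase PLSCR4 was at 0.58, the calcium-activated scramblase ANO6 at 0.38 and the flippase ATP11A at -0.46 (limma adjusted p = 0.0731, 0.231 and 0.101), and in the control arrays alone the differences were 0.64, 0.33 and -0.47. The result for ATP11A depended on the choice of probe sets. Without those ending in _x_at or _s_at it was at -0.74 and passed (limma adjusted p = 0.0361). With averaged probe sets it was at -0.40 and did not pass (limma adjusted p = 0.275).

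By size, 2-fold or more where at least 1 array of the pair reached 6, the calls between fractions were few. In the DOX arrays 1 of 8 annexins was higher and 2 lower, against 11.4% and 5.32% of all genes. In the control arrays 1 of 8 was higher and 0 lower, against 6.09% and 4.4%. The higher gene was ANXA3 in both, and the lower genes were ANXA5 and ANXA7. Centring of the arrays turned the 1396 higher and 650 lower of all genes in the DOX arrays into 1124 and 843, with the same counts of annexins. Such calls have no replicate check, since each group held 1 array. The comparisons in the control and the DOX arrays share no array.

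**Figure D2:**
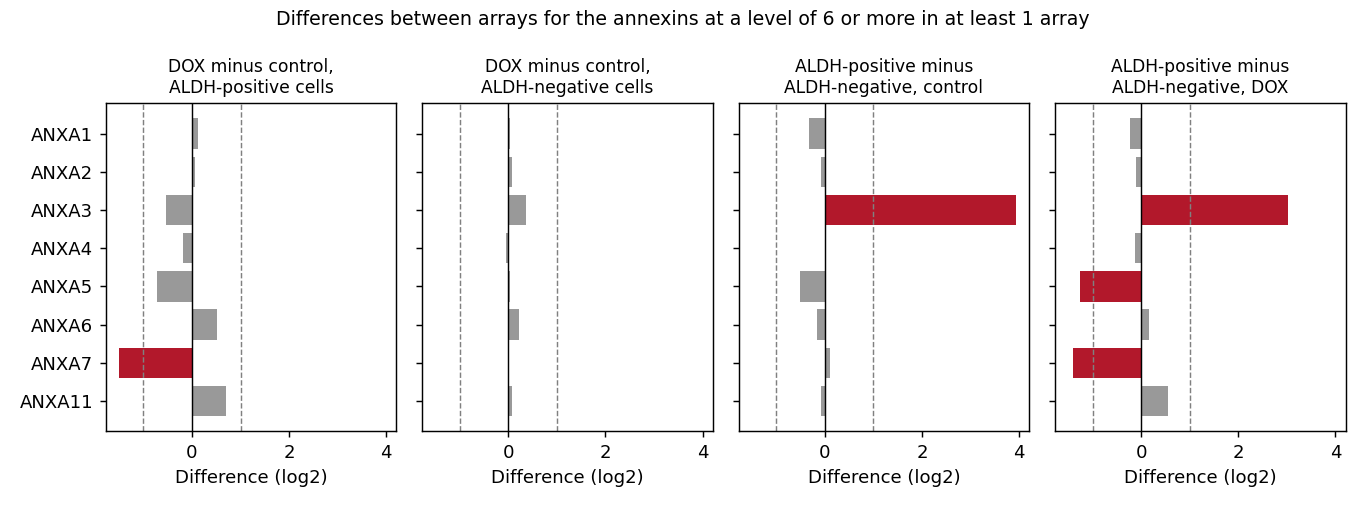
Differences of log2 levels (horizontal axis) for the 8 annexins that reached 6, in 4 pairs of arrays, with dashed lines at a 2-fold difference and bars past them in red. ANXA3 stands at 3.03 with DOX and 3.94 without it between the fractions, ANXA7 at -1.503 with DOX in ALDH-positive cells, and no annexin passes 2-fold with DOX in ALDH-negative cells.

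In ALDH-positive cells DOX went with differences in both directions. Of 8 measured annexins 0 were 2-fold higher and 1 lower, against 3.47% and 2.3% of all 12151 genes, and the median absolute difference over all genes was 0.30. Centring of the arrays turned the 422 higher and 280 lower of all genes into 264 and 387. ANXA11, which encodes a protein that links RNA granules to lysosomes, was at 11.58 in DOX against 10.88 in control cells, a difference of 0.70. ANXA6, whose protein has a duplicated annexin core, was at 9.16 in DOX against 8.64 in control cells, a difference of 0.53. ANXA5 differed by -0.72 and ANXA3 by -0.54. ANXA4, an annexin of secretory epithelia, differed by -0.18, ANXA1 by 0.12 and ANXA2 by 0.05. All genes of this pair had a median of 0.12, so that ANXA1 and ANXA2 turned to -0.01 and -0.08 once the arrays were centred on their medians. ANXA3, ANXA4, ANXA5, ANXA6, ANXA7 and ANXA11 kept their sign under both other scalings.

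In ALDH-negative cells the annexins, each on its brightest probe set, lay at nearly the same level with and without DOX. Of 7 measured annexins 0 were 2-fold higher and 0 lower, against 0.271% and 0.0508% of all 11819 genes. ANXA6 differed the most, at 0.21 (9.001 in DOX against 8.79 in control cells). The other 6 lay between -0.04 and 0.07, and the median over the 7 was 0.04. The median absolute difference over all genes in this pair was 0.09. ANXA3, under 6 in both arrays, was at 0.37, which is a difference of background. Some dimmer probe sets differed more in this pair. Those of ANXA11 were at 0.60 and -0.50 and that of ANXA4 at 0.23. Those of ANXA2 and ANXA7 lay between -0.02 and 0.10.

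ANXA7 gave the widest difference with DOX, on 1 of its 2 probe sets. It encodes synexin, a membrane-fusing annexin that binds the calcium sensors sorcin (SRI) and PDCD6. Its brighter probe set was at 10.98 in ALDH-positive DOX and 12.48 in ALDH-positive control cells, against 12.38 in ALDH-negative DOX and 12.37 in ALDH-negative control cells. Only the ALDH-positive DOX array was low, with a DOX difference of -1.503 there, against 0.01 between the ALDH-negative arrays. The second probe set was at 11.76, 11.79, 11.97 and 11.99 in the same order of arrays, with DOX differences of -0.03 and -0.02. The lower level is thus seen by 1 probe set and not by the other. It lies in the array whose ribosomal control probe sets for the 3' and 5' ends stood apart. On the difference between the 2 DOX differences, ALDH-positive minus ALDH-negative, ANXA7 was at -1.51, and of 8 annexins 1 lay at a 2-fold difference below 0 and 0 above it, against 2.4% and 3.78% of all genes. Which part of the transcript each probe set reads was not analysed here. Probe sets of a called gene often differed in size in this pair. Of 286 genes called there with at least 2 probe sets at the level of 6, 76 passed 2-fold the same way on all of them. In 211 of the 286 all probe sets lay on the same side of 0, as those of ANXA7 did. Between the fractions of control cells 280 of 552 passed 2-fold on all of them, and 500 had them on the same side.

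**Figure D3:**
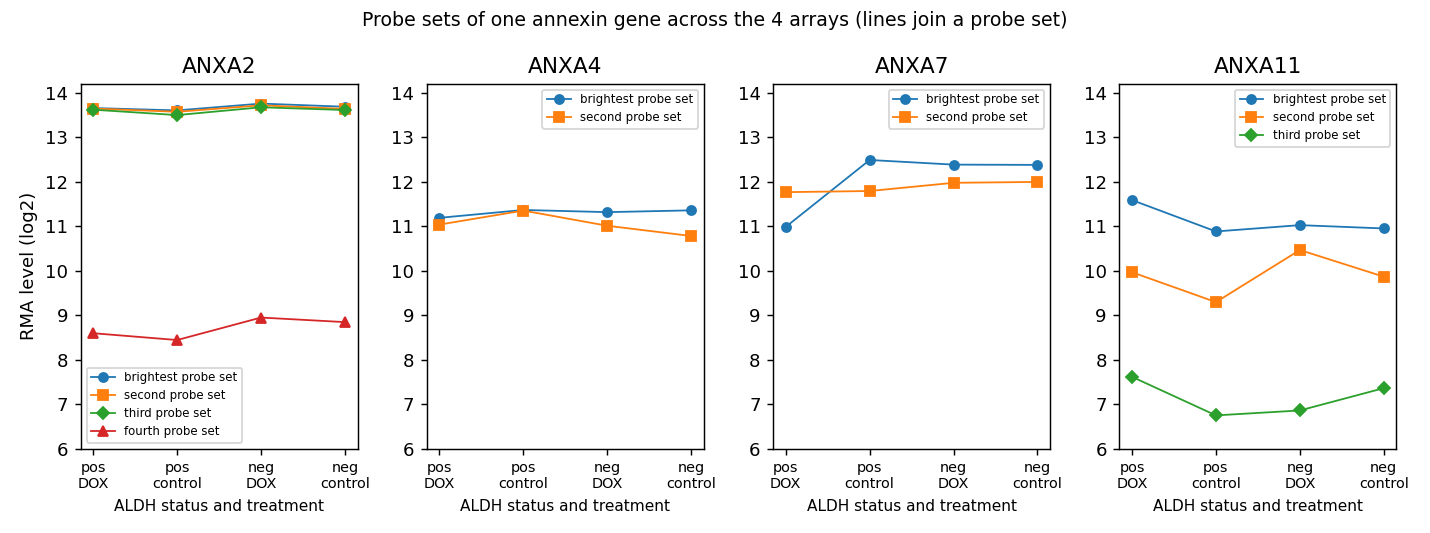
RMA levels (log2, vertical axis) of every probe set at 6 or more for the 4 annexins that have several, over the 4 arrays (pos and neg are ALDH-positive and ALDH-negative). The 2 probe sets of ANXA7 part in ALDH-positive DOX, at 10.98 and 11.76, and the 3 of ANXA11 all lie higher in ALDH-positive DOX than in ALDH-positive control.

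The 3 probe sets of ANXA11 went the same way in ALDH-positive cells and apart in ALDH-negative cells. In ALDH-positive cells the brightest differed by 0.70, the second by 0.67 and the third by 0.87 with DOX. The third was at 7.61 in DOX against 6.75 in control cells. In ALDH-negative cells the same probe sets differed by 0.07, 0.60 and -0.50. Between the fractions they also parted, at 0.56, -0.50 and 0.76 in the DOX arrays and -0.07, -0.57 and -0.61 in the control arrays. ANXA4 had a like split of smaller size. Its second probe set was at 11.03 in ALDH-positive DOX, 11.35 in ALDH-positive control, 11.01 in ALDH-negative DOX and 10.78 in ALDH-negative control cells, while the brightest ranged over 0.18.

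The additive model gave no annexin a DOX effect that passed. Of 8 tested 0 passed in limma as higher and 0 as lower, against 0.00809% and 0% of all 12365 genes, and 1 of the 8 had an unadjusted p under 0.05, against 5.27% of all genes. That was ANXA7, at -0.75 ± 0.25 (SE, limma adjusted p = 0.855), lower in 1 of 2 pairs. ANXA11 was at 0.39 and ANXA6 at 0.37, each above 0 in both pairs, with limma adjusted p = 0.916 and 0.919. A DOX response in 1 fraction alone counts as error in this model, so a p that misses the threshold does not show that these genes did not respond.

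The atypical annexins were not measured above background. ANXA9 was at 4.86, 4.71, 4.84 and 4.58, and ANXA10 at 4.27, 3.96, 4.62 and 4.27, in ALDH-positive DOX, ALDH-positive control, ALDH-negative DOX and ALDH-negative control cells. ANXA10 is best known from stomach and urothelium. The second probe sets of ANXA1, ANXA6 and ANXA9 were also under 6 in every array. None of these values gives a direction.

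ANXA3 had the largest range over the 4 arrays, 3.94, and genes of a like pattern were sought among the 12364 other genes at 6 or more in at least 1 array. The measure was the Euclidean distance between the 4 levels, each gene centred on its own mean. The nearest was FUT1, a fucosyltransferase that makes the H antigen, at a distance of 0.36. The epithelial cytokine TSLP (0.37), the tight junction protein CLDN1 (0.41), the interferon-induced antiviral enzyme RSAD2 (0.43) and the RNA CRIM1-DT (0.43) followed. FUT1 was at 9.99 in ALDH-positive DOX and 10.48 in ALDH-positive control cells, against 7.35 in ALDH-negative DOX and 6.86 in ALDH-negative control cells. TSLP was at 7.90 and 7.99 in the ALDH-positive DOX and control arrays, against 4.50 and 4.42 in the ALDH-negative DOX and control arrays. With 4 arrays this likeness describes the arrays only.

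The partners of annexins were followed through 6 lists. Of the S100 proteins that bind annexins, 5 of 6 were measured and 1 of these passed as lower and 0 as higher, against 9.58% and 13.5% of all genes. S100A4, a calcium sensor of motile cells that binds annexin A2, fell by 1.09 in ALDH-positive cells ± 0.23 (SE, limma adjusted p = 0.00483). S100A4 was at 11.65 in ALDH-positive DOX and 10.47 in ALDH-positive control cells, against 12.15 in ALDH-negative DOX and 12.15 in ALDH-negative control cells. The ALDH-positive control array alone lay well below the others, so the fractions differed by -0.50 with DOX and by -1.67 without it. S100A10, the partner of annexin A2, was at -0.15, S100A11, the partner of annexin A1, at -0.34 and S100A6 at -0.17 (limma adjusted p = 0.303, 0.0809 and 0.153), each below 0 in both pairs. With averaged probe sets S100A10 was at -0.49 and S100A6 at -0.64, and neither passed (limma adjusted p = 0.116 and 0.102). S100A6 then differed by -1.03 in the control arrays and by -0.24 in the DOX arrays. The median over the list was -0.17, against 0.03 over all genes.

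Downstream of annexin A1, PLA2G4A, the cytosolic phospholipase A2, fell by 1.37 in ALDH-positive cells ± 0.33 (SE, limma adjusted p = 0.0103). It was at 5.83 in ALDH-positive DOX and 7.41 in ALDH-positive control cells, against 7.82 in ALDH-negative DOX and 8.16 in ALDH-negative control cells. The ALDH-positive DOX array was the lowest, and the difference in the control arrays was -0.76. Of the formyl peptide receptors FPR1 reached 6 in ALDH-positive DOX alone, at 6.29, and FPR2 and FPR3 stayed under 6.

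Of the 4 genes of plasminogen activation at the cell surface, where annexin A2 acts, PLAU and its receptor PLAUR fell in ALDH-positive cells, against 9.58% of all genes. PLAU, urokinase, was at 8.15 in ALDH-positive DOX and 6.91 in ALDH-positive control cells, against 8.63 in ALDH-negative DOX and 8.43 in ALDH-negative control cells. The effect was -1.001 ± 0.31 for PLAU and -1.06 ± 0.27 for PLAUR (SE, limma adjusted p = 0.0347 and 0.0149). PLAUR was at 8.90 in ALDH-positive DOX and 7.74 in ALDH-positive control cells, against 9.68 in ALDH-negative DOX and 9.08 in ALDH-negative control cells. Both were 2-fold or more higher with DOX in ALDH-positive cells, by 1.24 and 1.17, against 3.47% of all genes. Between the fractions of control cells they differed by -1.52 and -1.34. PLAU was at -0.57 (limma adjusted p = 0.169) when its probe sets were averaged, and it missed the threshold with levels under 6 set to 6 (limma adjusted p = 0.0541). PLAT, tissue plasminogen activator, was at 0.04 and PLG at -0.19, and neither passed.

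Among the scaffold and EF-hand partners 5 of 6 had a probe set and all 5 were measured. Of these 0 passed in limma and 1, SRI, had an unadjusted p under 0.05, against 13.5% higher, 9.58% lower and 35.7% unadjusted over all genes. SRI, the partner of annexin A7, was at 0.31 (limma adjusted p = 0.0594), PDCD6, the partner of annexins A7 and A11, at -0.36 and PRKCA, a kinase that annexin A6 binds, at -0.34. In the control arrays alone these differences were 0.29, -0.51 and -0.48. With a level of 7 required, SRI passed (limma adjusted p = 0.048). The signs of SRI and PDCD6 depended on the choice of probe sets. Without probe sets ending in _x_at or _s_at SRI was at -0.20, and PDCD6 stayed at -0.36. With averaged probe sets SRI was at 0.06, PDCD6 at 0.37 and PRKCA at -0.63. AHNAK, a giant scaffold of the annexin A2 complex, was at -0.00, with levels between 12.45 and 12.48 in the 4 arrays.

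Of 19 plasma membrane repair genes 15 were measured, and 3 rose and 1 fell in ALDH-positive cells, counts that lie near the 13.5% and 9.58% of all genes. Of the other 4, 3 had no probe set and TRIM72 was under 6. CHMP2A, a subunit of the ESCRT-III membrane-cutting complex, rose by 1.10 ± 0.17 (SE, limma adjusted p = 0.000662). It was at 12.19 in ALDH-positive DOX and 11.83 in ALDH-positive control cells, against 10.93 in ALDH-negative DOX and 10.87 in ALDH-negative control cells. The ferlin MYOF, a calcium-binding membrane repair protein, rose by 0.72 and EHD2, a membrane-shaping ATPase, by 0.68 (limma adjusted p = 0.004 and 0.0298). MYOF differed by 0.56 in the DOX arrays and by 0.88 in the control arrays. EHD2 differed by 1.21 in the DOX arrays and by 0.15 in the control arrays, and it missed the threshold after centring (limma adjusted p = 0.0787), with loess (0.0649) and with averaged probe sets (0.169). DYSF, dysferlin, fell by 1.03 ± 0.29 (SE, limma adjusted p = 0.0217). DYSF was at 6.35 in ALDH-positive DOX and 5.24 in ALDH-positive control cells, against 7.17 in ALDH-negative DOX and 6.47 in ALDH-negative control cells. With levels under 6 set to 6 the value for DYSF was -0.65 (limma adjusted p = 0.0384), and at a level of 7 it missed the threshold (limma adjusted p = 0.0503). CAPNS1, at 0.60 (limma adjusted p = 0.0634), passed at a level of 7 (limma adjusted p = 0.0342). The list's median was 0.07, against 0.03 over all genes. Its 2 ferlins, MYOF and DYSF, went in opposite directions, and the difference between them was not tested. Without a filter on level CHMP2A and MYOF passed, while S100A4, PLA2G4A, PLAU, PLAUR, DYSF and EHD2 had limma adjusted p-values of 0.0841, 0.0798, 0.138, 0.0817, 0.0539 and 0.176.

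With DOX in ALDH-positive cells, the 15 measured repair genes had a median of 0.34, against 0.12 over all genes. DYSF, at 1.11, and SMPD1, the acid sphingomyelinase, at 1.03, were 2-fold or more higher and 0 lower, against 3.47% and 2.3% of all genes. After centring both were under 2-fold, at 0.97 and 0.90. SMPD1 was at 0.38 when its probe sets were averaged, and DYSF at 0.35 with levels under 6 set to 6. In the same pair S100A4 was at 1.18 and PLA2G4A at -1.58. The additive model (limma) gave 0 of the 15 repair genes a DOX effect that passed, and 2, DYSF and SMPD1, had an unadjusted p under 0.05, against 0.00809% and 5.27% of all genes.

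**Figure D4:**
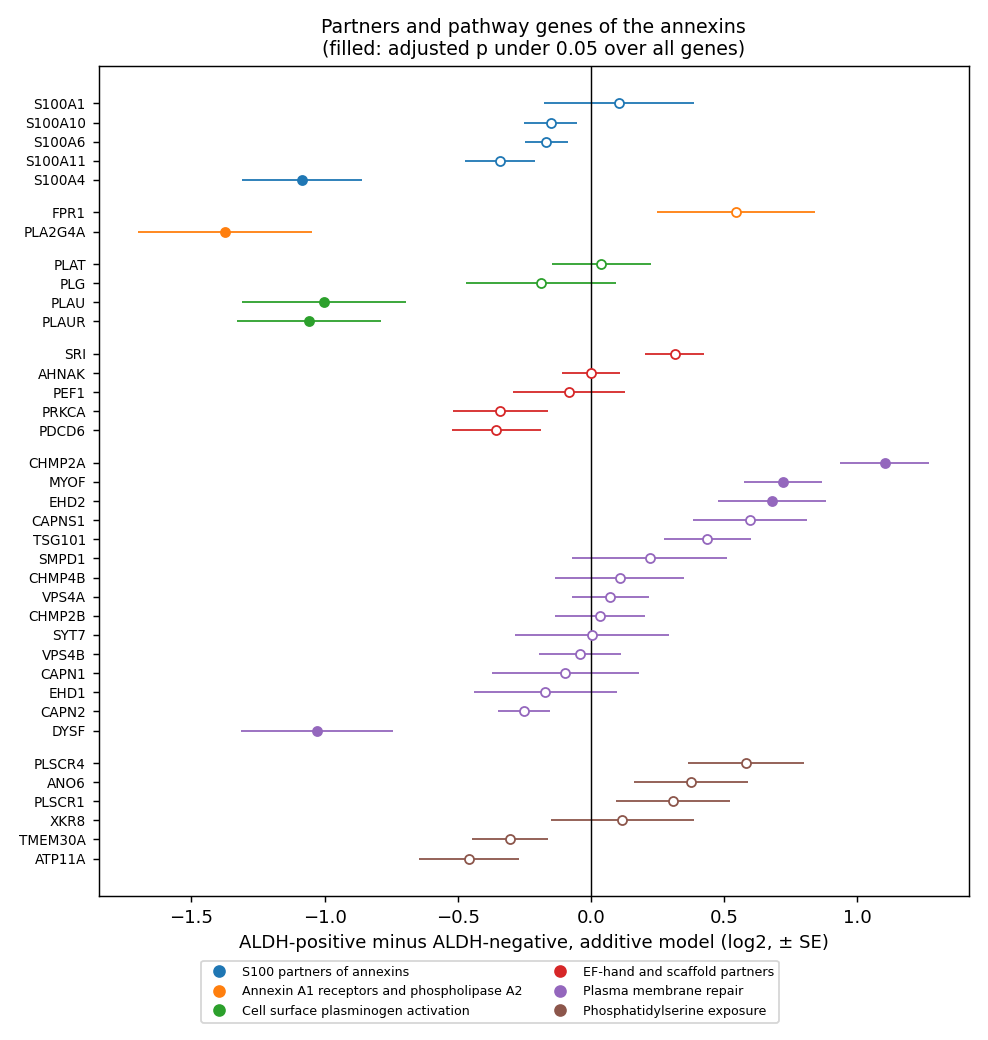
Mean difference between ALDH-positive and ALDH-negative cells in the additive model (log2, horizontal axis, bars are SE) for measured partner and pathway genes, grouped by list, with filled points for adjusted p under 0.05. S100A4 (-1.09), PLA2G4A (-1.37), PLAU (-1.001), PLAUR (-1.06) and DYSF (-1.03) lie to the left and CHMP2A (1.10), MYOF (0.72) and EHD2 (0.68) to the right.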

How the data were processed

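RNA of 4 samples was hybridised to 1 array each. The authors deposited log2 probe set levels made with RMA, per the submitters' processing notes. Its version and the genome build are not given in the sources used here. Of 54675 probe sets, 62 were controls, and a platform annotation of 2016 gave 41097 probe sets 1 gene, 1801 several and 11777 none. Among a gene's own probe sets the one with the highest mean stood for it, and 12365 of 19775 genes reached 6 in at least 1 array. Differences of log2 levels were called at 2-fold. The additive model used limma 3.58.1 in R 4.3.3 (lmFit, eBayes with trend, Benjamini-Hochberg over all genes, a two-sided threshold of 0.05). The code was run on simulated data that held differences between the fractions and independent noise. That run held no DOX response that differs between the fractions, so it does not cover such genes. The number of arrays limits the precision. Figures used Python 3.11.15 and matplotlib 3.10.9.

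All 10 annexins were named, and of each list the members that passed or were called, at most 4 a comparison, plus direct annexin partners. The members and lists were chosen with earlier results of these data known. Alternatives were centring on the median of measured genes, cyclic loess, no level filter or one at 7, a floor of 6, averaging of probe sets, dropping those that end in _x_at or _s_at, 1.5-fold, eBayes without trend or robust, and fitting probe sets in place of genes.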

Additional observations from a re-analysis of the deposited data

Results flagged for a closer look

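ANXA7 stood out because its DOX difference was -1.503 between the ALDH-positive arrays and 0.01 between the ALDH-negative arrays, a difference of -1.51 between the fractions on the log2 scale. Over all 12365 genes 2.4% lay at -1 or lower on this measure. The difference was not tested, since each fraction held 1 DOX and 1 control array. On the gene's second probe set it was -0.01. The 3' probe set of 18S ribosomal RNA, at -1.90 with DOX in ALDH-positive cells, against 0.45 in ALDH-negative cells, moved in the same array, and its part in the result was not tested.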

How the results depend on the processing

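No paired analysis was possible because each group held 1 array, and no array could be left out of the additive model, which would then have had no residual degrees of freedom. Of 104 recomputed counts of annexins, 95 lay within 1.5 times of the reported count. With DOX in ALDH-positive cells, 0 annexins were 2-fold lower when a gene's probe sets were averaged or when those ending in _x_at or _s_at were left out, and at 1.5-fold 2 were lower and 1 higher. Between the fractions of DOX cells, 1 annexin was 2-fold lower under each of the same 2 choices of probe sets. In the additive model between the fractions, 0 annexins fell without a filter on level or without the variance trend, and 2 fell at a level of 7, where ANXA7 joined ANXA5 (limma adjusted p = 0.0208). No called annexin changed sign under any alternative run. ANXA3 passed in all 10, at 2.57 to 3.48, and ANXA5 in 8 of 10, with limma adjusted p from 0.000186 to 0.0781. With 1 probe set each, neither could have its effect changed by the choices of probe sets. ANXA6 without shared probe sets was under 6 and gave no value. Over all genes the additive model between the fractions called 1672 higher and 1184 lower, against 767 and 410 without a filter on level, 998 and 529 without the trend, and 1131 and 797 with averaged probe sets.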
